A study of Mus musculus with 12 samples.

Results

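The 32 genes described here are Trp53, which encodes the transcription factor p53, and genes known as its transcriptional targets. They were listed by name. They make up 32 of the 53801 gene identifiers counted, and all 32 were among the 15828 genes that passed the filter on low counts and were tested. Each gene was placed in 1 class by a role known for it. This gave 1 factor (Trp53), 3 feedback genes, 8 arrest genes, 12 apoptosis genes, 5 repair genes and 3 genes of metabolism. Several of them have further roles, so the counts by role depend on this choice. The arrest class takes in growth control, the repair class nucleotide supply and the metabolism class detoxification.

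The libraries hold polyadenylated RNA of C2C12, a line of mouse myoblasts. Control cells (Ctrl) and cells in which Cebpg was knocked down (Sh2) received either DMSO, the solvent, or thapsigargin (Thap) for 6 h, with 3 libraries in each of the 4 groups. Cebpg encodes C/EBPγ, a bZIP protein that pairs with ATF4, and thapsigargin blocks the SERCA calcium pump and so causes endoplasmic reticulum (ER) stress. The question behind the design is how loss of C/EBPγ changes the cells and their answer to ER stress. The knockdown carries the single label Sh2, what the control cells received and the dose of thapsigargin are not given in the sources used here, and the growth protocol names HeLa where the cell line field names C2C12. Loss of Cebpg, off-target action of the hairpin and any other difference between the 2 populations can therefore not be told apart. It is not stated whether replicates were grown as separate cultures, and the p-values reflect no more than the spread among the libraries, which may be technical.

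p53 is made all the time and destroyed all the time. Mdm2, an E3 ubiquitin ligase and itself a p53 target, marks it for the proteasome, and Mdm4 masks its activation domain. DNA damage and other stresses free p53 from both, mostly at the level of the protein, so that the level of Trp53 messenger RNA says little about p53 activity. Active p53 binds pairs of short half-sites near its targets and raises genes that halt the cell cycle, above all Cdkn1a, genes that trigger death through the mitochondrion or through death receptors, and genes that repair DNA. Many of these genes also answer to other factors, ATF4 and its partners among them, which ER stress brings up.

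Promoter sequences are shown for the members whose window held a match to one of the motifs searched, since these are the letters through which p53 or a stress bZIP factor could read them. RefSeq promoters (GRCm38.p6, from 250 bases before to 50 after the start) were at hand for 24 of the 32 members. A p53 site, searched by its consensus of 2 half-sites with its central C and G kept, at most 2 mismatches elsewhere and a spacer of up to 13 bases, was found in 5 of these 24 (20.8%) and in 1272 of all 27025 genes with a promoter (4.71%). Each line reads 5′ to 3′ along the strand of the gene, with capitals from the first to the last base of the match, spacer included.
Cdkn1a, chr17:29090906-29090937, 0 mismatches: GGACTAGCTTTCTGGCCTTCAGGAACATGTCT
Ccng1, chr11:40755457-40755486, 1 mismatch: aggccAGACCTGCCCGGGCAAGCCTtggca
Bax, chr7:45467075-45467103, 2 mismatches: tcccAGGCAAGCTTTGAACTTGCGGcaat
Gadd45a, chr6:67037436-67037465, 2 mismatches: ctGGACCTGGTTGGCTGAGGGCTAGCCCca
Sesn1, chr10:41887250-41887278, 2 mismatches: tggGCGCTTGGCCTTCAAGCTTGTTTttg

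The cyclic AMP response element TGACGTCA, searched on both strands, stood in the windows of Btg2 and Plk2, 2 of 24 members (8.3%), against 549 of all genes with a promoter (2.03%). Capitals mark it in both lines.
Btg2, chr1:134079306-134079329: cccaataaTGACGTCAgtgagcga
Plk2, chr13:110394974-110394997: gctcgccgTGACGTCAcgaggccc
The composite C/EBP and ATF letters TGATGCAAT were in none of the 24 windows, against 60 of all genes (0.22%). These matches describe letters in a short window. They show neither binding nor its absence. The Sesn1 window belongs to a start inside the gene, which begins at position 41809935 of chromosome 10.

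Libraries held 29.4 to 47.7 M reads assigned to genes, and levels are given as counts per M gene reads after TMM scaling (CPM). Cebpg, measured first as the check of the labels, stood at 51.7, 51.4 and 60.6 CPM in Ctrl-DMSO and at 211, 219 and 216 CPM in Ctrl-Thap, against 4.62, 3.74 and 5.18 CPM in Sh2-DMSO and 6.11, 5.58 and 5.29 CPM in Sh2-Thap. The groups labelled Sh2 thus lay below both control groups in every library. The 8 myoblast markers summed to 2535 to 2759 CPM in Ctrl-DMSO, above Ctrl-Thap (2044 to 2116), Sh2-DMSO (2091 to 2200) and Sh2-Thap (1970 to 2062). Thapsigargin lowered 7 of the 8 and raised 1 in each population. Of all genes tested, 37% were called lower and 37.7% higher in Ctrl (adjusted p under 0.05), and 34.4% and 35.4% in Sh2. The knockdown lowered 5 and raised 2 in DMSO, against 26.5% and 25% of all genes. With thapsigargin present it lowered 3 and raised 2, against 28.4% and 28.5%. The 2 raised are 25.0% of the 8, near the shares of all genes. The part of these markers in the changes of the p53 targets was not tested. Markers of leukocytes summed to at most 6.93 CPM, those of epithelial cells to at most 8.49, of endothelial cells to at most 27.3 and of adipocytes to at most 134, the last nearly all Lpl.

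Most feedback, arrest and apoptosis genes were higher in the knockdown in DMSO. Calls throughout are edgeR quasi-likelihood tests at an adjusted p under 0.05 over all genes tested. In DMSO, 22 members were higher in the knockdown and 7 lower, with a median log2 change of 0.42, whereas 25% of all genes tested were called higher and 26.5% lower around a median of 0.00. With thapsigargin, 20 were higher and 6 lower, with a median of 0.22, against 28.5% and 28.4% of all genes. Those 2 comparisons use different libraries of the same 2 cell populations, and 19 members were higher and 5 lower in both. The 5 were Mdm4, Sesn1, Bbc3, Rrm2b and Fdxr. The share of all genes called alike in both was not counted.

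Thapsigargin moved members in both directions. In control cells 16 rose and 8 fell, with a median of 0.16, against 37.7% of all genes called higher and 37% lower. In knockdown cells 20 rose and 7 fell, with a median of 0.42, against 35.4% and 34.4%. Of the members, 15 rose in both cell populations and 5 fell in both, the latter Sesn1, Bax, Ei24, Xpc and Ephx1. How many of all genes rose or fell in both was not counted. The interaction, which is the thapsigargin effect in Sh2 minus that in Ctrl, was called for 20 members, 8 above zero and 12 below, against 17.6% and 17.7% of all genes. The share of members called above zero was 25.0% and so not far from that background. Leaving out Ctrl-DMSO replicate 3 or Sh2-Thap replicate 1 left 5 above zero.

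**Figure D1:**
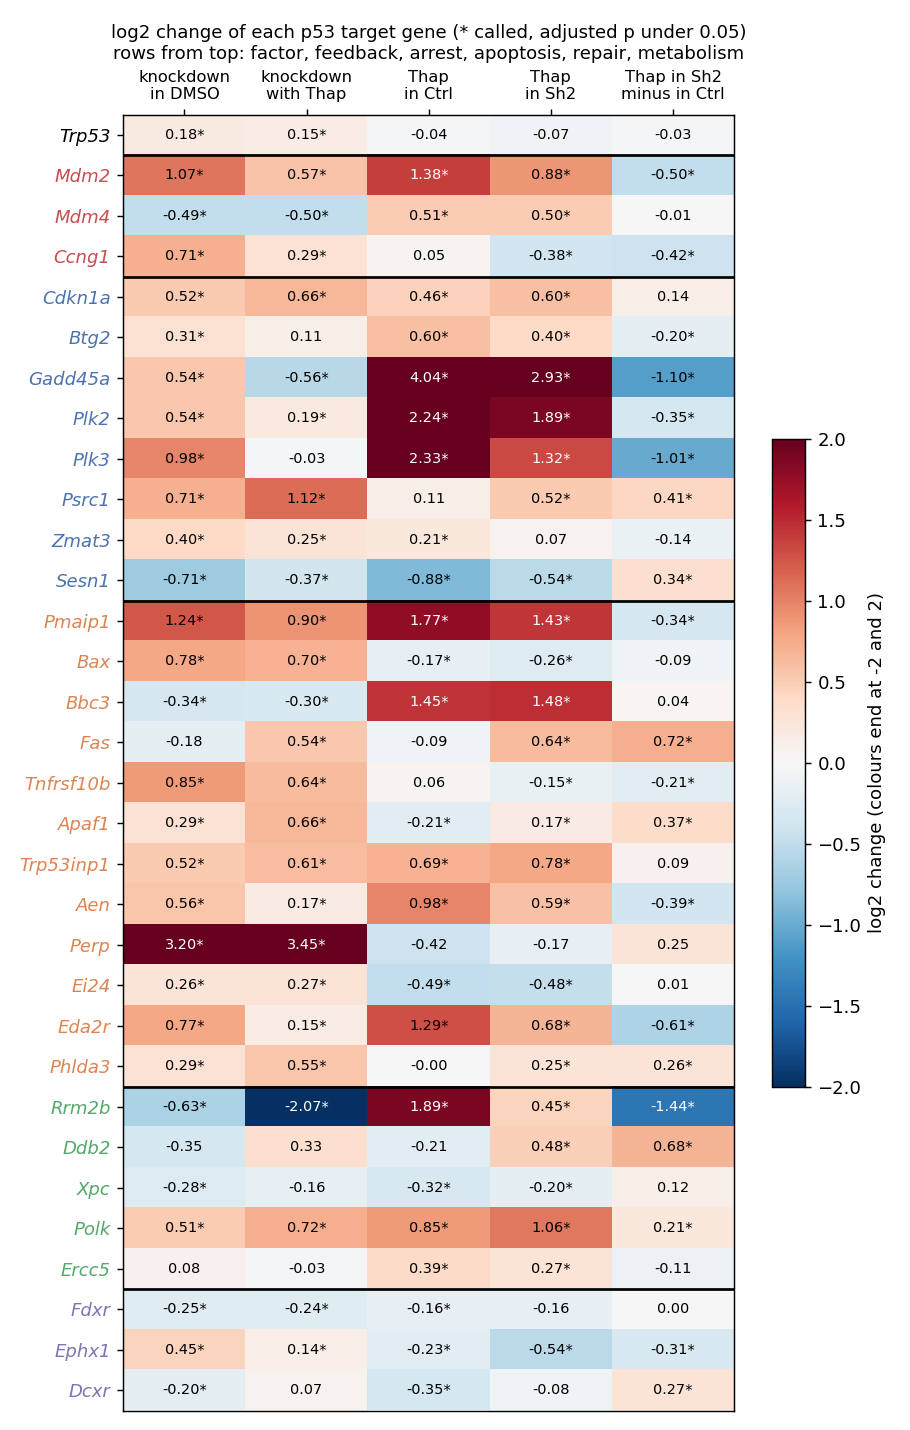
Each row is a gene, grouped by role from the factor at the top to metabolism at the bottom, and each column a comparison, with the log2 change printed and coloured (red higher, blue lower) and a star for an adjusted p under 0.05. The knockdown columns are red for most feedback, arrest and apoptosis genes, and the last column is blue for Rrm2b (-1.44), Gadd45a (-1.10) and Plk3 (-1.01).

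Counts by role follow, to be read against the shares of all genes tested, which for higher calls were 25% and 28.5% with the knockdown in DMSO and with thapsigargin, and 37.7% and 35.4% with thapsigargin in Ctrl and in Sh2. In DMSO the knockdown raised 7 of 8 arrest genes (median 0.53) and 10 of 12 apoptosis genes (median 0.54), against 1 of 5 repair genes (median -0.28) and 1 of 3 genes of metabolism (median -0.20). With thapsigargin the knockdown cells were higher for 11 of 12 apoptosis genes (median 0.58) and for 4 of 8 arrest genes (median 0.15). Thapsigargin raised 6 of 8 arrest genes in each population (medians 0.53 in Ctrl and 0.56 in Sh2). It raised 5 of 12 apoptosis genes in Ctrl (median 0.03) and 8 of 12 in Sh2 (median 0.42), 3 of 5 repair genes in Ctrl and 4 of 5 in Sh2, and none of the 3 genes of metabolism in either. The 5 of 12 apoptosis genes raised in Ctrl are a share (41.7%) near that of all genes. The counts were not tested against each other, and the small classes rest on single genes.

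Scaling bears on the comparisons that involve Sh2-Thap, whose TMM factors were 1.064, 1.048 and 1.073, against 0.967 to 0.997 in the other libraries. With total count scaling the median of all genes moved to 0.149 for the knockdown with thapsigargin and to 0.171 for the interaction. Calls above zero then made up 66.6% of all calls in the former (50.1% with TMM) and 75.5% in the latter (49.9% with TMM). Members lower with thapsigargin in Sh2 then numbered 4 in place of 7.

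Per kilobase of exon the members spanned a wide range in untreated control cells. Phlda3, which encodes an inhibitor of Akt, stood highest at 168 CPM per kb, followed by Ccng1 at 119 and Cdkn1a at 93.8. Trp53 itself stood at 62.4, below Ephx1 at 72.4. The middle of the order was crowded: Bax and Btg2 lay at 17.3 and 17.2, and Mdm4, Polk, Ercc5 and Gadd45a between 6.09 and 6.29, and within each of these sets the differences were inside the spread of the libraries. Rrm2b at 3.34, Ddb2 at 0.742 and Perp at 0.0493 CPM per kb closed the order. The highest mean of a member fell in Sh2-Thap for 15 of the 32, in Sh2-DMSO for 7, in Ctrl-Thap for 6 and in Ctrl-DMSO for 4 (Sesn1, Xpc, Fdxr and Dcxr). This was counted with TMM scaling alone and for the members only, so no share of all genes stands beside it.

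**Figure D2:**
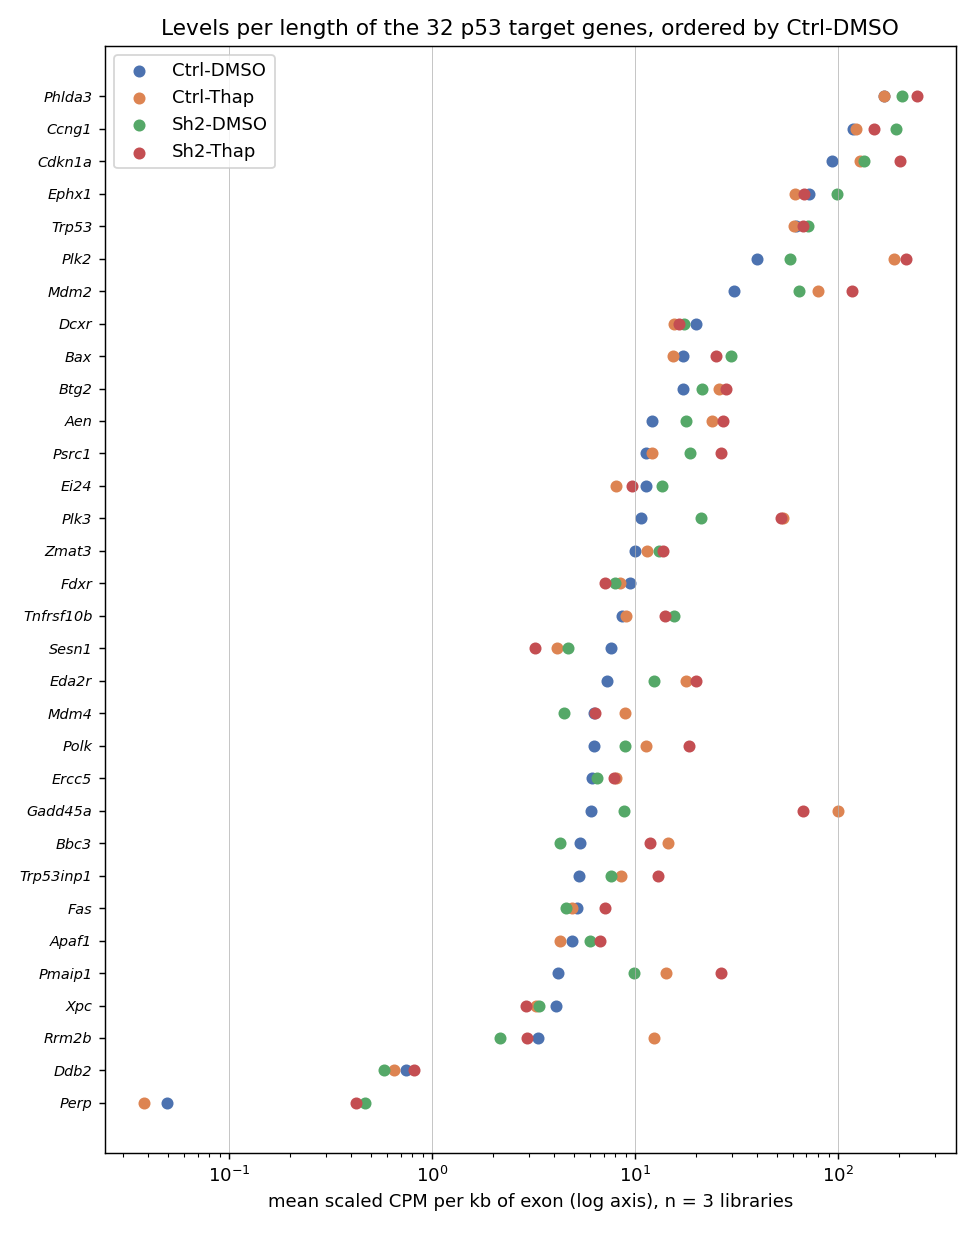
Mean level per length (scaled CPM per kb of exon, log axis, n = 3 libraries) of the 32 genes in the 4 groups, ordered from the lowest to the highest in Ctrl-DMSO. Phlda3 stands at the top at 168 CPM per kb and Perp at the bottom at 0.0493, and Gadd45a, Plk2 and Plk3 show the widest gap between DMSO and thapsigargin points in control cells.

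Trp53 changed little. The gene (ENSMUSG00000059552, chromosome 11, 69580359 to 69591873, plus strand, GRCm38) stood at 246, 262 and 249 CPM in Ctrl-DMSO and at 243, 240 and 253 in Ctrl-Thap. Knockdown cells held 281, 300 and 279 CPM in DMSO and 271, 281 and 267 with thapsigargin. All 6 knockdown libraries lay above all 6 control libraries, and the treatments overlapped within each population. The knockdown raised it by a log2 change of 0.18 (SE 0.04, adjusted p = 0.000582) in DMSO and 0.15 (SE 0.04, adjusted p = 0.0029) with thapsigargin, and the thapsigargin effects were -0.04 (SE 0.04, adjusted p = 0.407) in Ctrl and -0.07 (SE 0.04, adjusted p = 0.145) in Sh2.

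Of the feedback genes, Mdm2 showed the largest changes and rose with both the knockdown and thapsigargin. Mdm2 (ENSMUSG00000020184, chromosome 10, 117688875 to 117710758, minus strand) was counted at 156, 149 and 162 CPM in Ctrl-DMSO, 396, 407 and 413 in Ctrl-Thap, 319, 322 and 336 in Sh2-DMSO and 600, 614 and 585 in Sh2-Thap. No group overlapped another. The knockdown raised it 2.09-fold in DMSO (log2 1.07, SE 0.04, adjusted p = 1.13e-19) and 1.48-fold with thapsigargin (0.57, SE 0.04, adjusted p = 2.41e-13). Thapsigargin raised it 2.61-fold in Ctrl (1.38, SE 0.04) and 1.84-fold in Sh2 (0.88, SE 0.04), so that its rise was smaller in the knockdown by 0.50 on the log2 scale (SE 0.06, adjusted p = 4.13e-08) although its level there was higher.

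Mdm4, the partner that masks the activation domain of p53, went the other way with the knockdown. It stood at 98.6, 82.5 and 98 CPM in Ctrl-DMSO and 138, 133 and 125 in Ctrl-Thap, against 64.1, 57.7 and 76.8 in Sh2-DMSO and 97.4, 89.4 and 94.1 in Sh2-Thap. Knockdown cells under thapsigargin thus overlapped control cells in DMSO, and no other groups overlapped. The knockdown effect was -0.49 (SE 0.09) in DMSO and -0.50 (SE 0.09) with thapsigargin, and the thapsigargin effect 0.51 (SE 0.09) in Ctrl and 0.50 (SE 0.09) in Sh2, all 4 called. The interaction was -0.01 (SE 0.13, adjusted p = 0.983).

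Ccng1 encodes cyclin G1, which brings the phosphatase PP2A to Mdm2. Its levels were 410, 399 and 446 CPM in Ctrl-DMSO, 432, 435 and 428 in Ctrl-Thap, 692, 676 and 681 in Sh2-DMSO and 521, 549 and 510 in Sh2-Thap. The control groups overlapped, and both knockdown groups lay above them. The change with the knockdown was 0.71 (SE 0.04, adjusted p = 5.62e-15) in DMSO and 0.29 (SE 0.04, adjusted p = 1.26e-06) with thapsigargin. Thapsigargin left a change of 0.05 (SE 0.04, adjusted p = 0.346) in Ctrl and lowered the gene by 0.38 in Sh2, an interaction of -0.42 (SE 0.06, adjusted p = 1.74e-06).

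**Figure D3:**
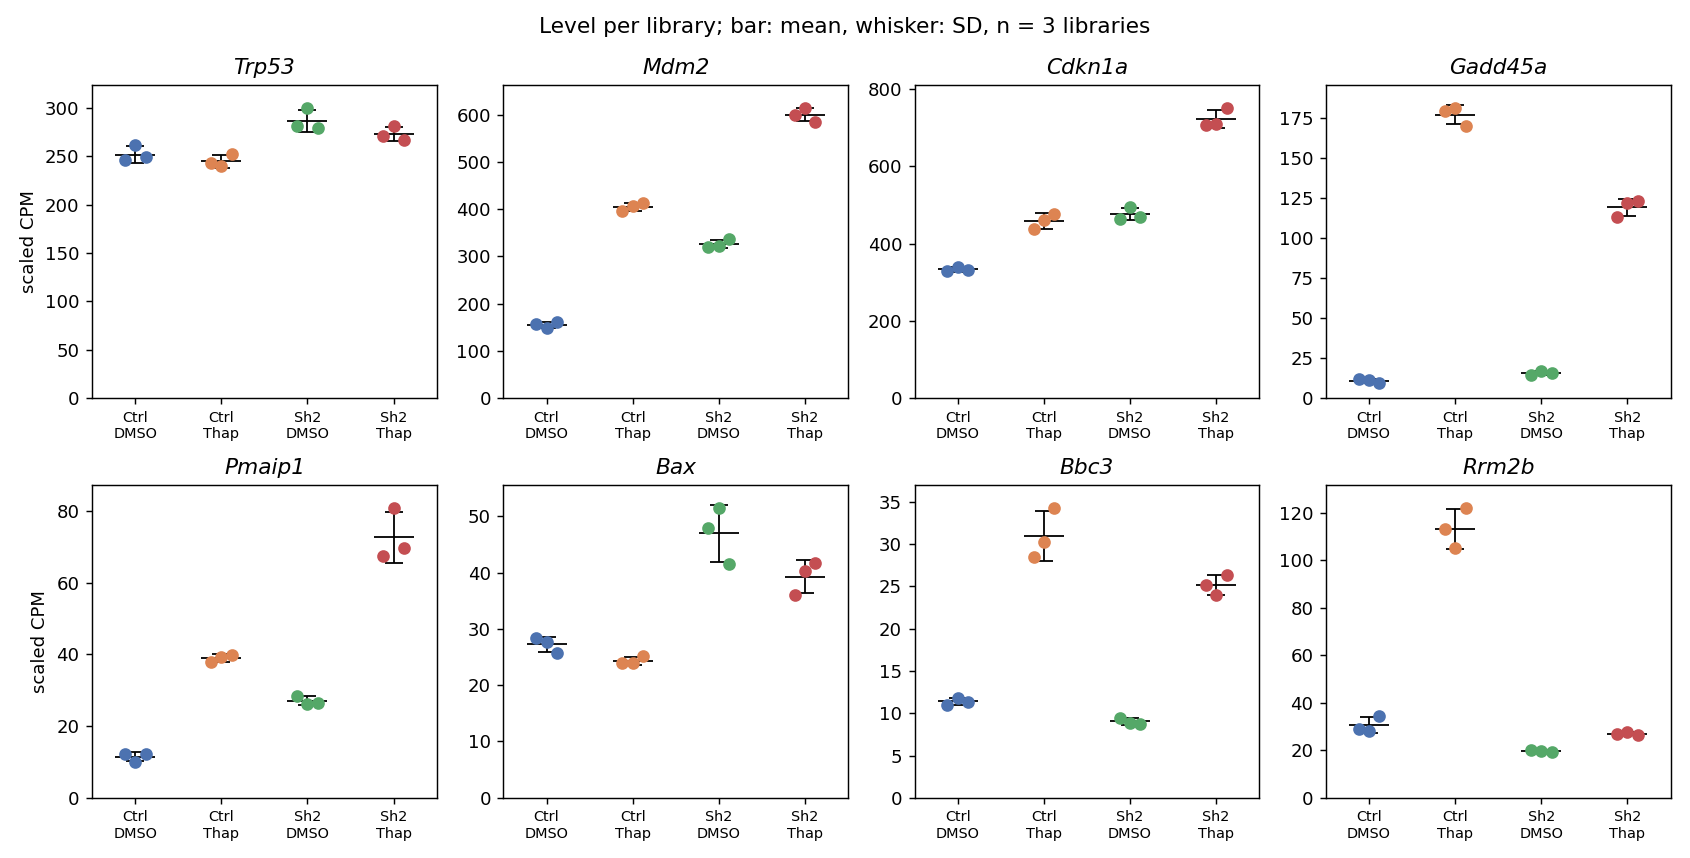
Scaled CPM in each of the 12 libraries for 8 members, one panel each with an axis from 0, with points for libraries, a bar for the mean and whiskers for the SD (n = 3). Mdm2 and Cdkn1a stand highest in Sh2-Thap, Gadd45a, Bbc3 and Rrm2b in Ctrl-Thap, Bax in Sh2-DMSO, and Trp53 differs little between the groups.

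Among the arrest genes, Cdkn1a, which encodes the cyclin-dependent kinase inhibitor p21, rose in each of the 4 pairwise comparisons. Cdkn1a (ENSMUSG00000023067, chromosome 17, 29090976 to 29100727, plus strand) stood at 328, 340 and 332 CPM in Ctrl-DMSO, 437, 461 and 477 in Ctrl-Thap, 465, 495 and 469 in Sh2-DMSO and 707, 710 and 751 in Sh2-Thap. Control cells under thapsigargin and knockdown cells in DMSO overlapped, and Sh2-Thap stood above all. With the knockdown the log2 change was 0.52 (SE 0.04, adjusted p = 1e-11) in DMSO and 0.66 (SE 0.04, adjusted p = 1.12e-14) with thapsigargin, and the thapsigargin effect 0.46 (SE 0.04) in Ctrl and 0.60 (SE 0.04) in Sh2. The interaction of 0.14 (SE 0.06, adjusted p = 0.0733) missed the threshold. Over the alternatives its adjusted p ran from 0.000143 to 0.238, and it passed with total count scaling (0.30), with a replicate block (0.14), without Ctrl-Thap replicate 3 (0.17) and without Sh2-DMSO replicate 2 (0.17). Of its exon length 7.7% is shared with a gene on the other strand, and whether the counting used strand is not given.

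Gadd45a, whose protein binds PCNA and Cdk1 and which ATF4 as well as p53 is known to raise, showed the largest thapsigargin effect of all members. Gadd45a (ENSMUSG00000036390, chromosome 6, 67035096 to 67037457, minus strand) was at 11.7, 11.1 and 9.51 CPM in Ctrl-DMSO and at 179, 181 and 170 in Ctrl-Thap. In knockdown cells it was at 14.3, 17.1 and 15.4 CPM in DMSO and at 113, 122 and 123 with thapsigargin. All 4 groups stood apart, and the order of the populations turned with the treatment: Sh2 was above Ctrl in DMSO and below it with thapsigargin. It was the only member with opposite calls of the knockdown, 0.54 (SE 0.08, adjusted p = 4.01e-07) in DMSO and -0.56 (SE 0.05, adjusted p = 7.12e-11) with thapsigargin. Its rise with thapsigargin was 16.43-fold in Ctrl (log2 4.04, SE 0.07) and 7.65-fold in Sh2 (2.93, SE 0.06), an interaction of -1.10 (SE 0.09, adjusted p = 2.3e-11). The non-coding gene E230016M11Rik on the other strand covers 19.1% of its exon length. What share of the Gadd45a reads this makes uncertain is not known.

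The polo-like kinases Plk2 and Plk3, both stress-responsive regulators of the cell cycle, followed Gadd45a in the size of the thapsigargin effect in control cells. Plk3 (ENSMUSG00000028680, chromosome 4, 117128655 to 117133963, minus strand) stood at 27.9, 26.8 and 26.5 CPM in Ctrl-DMSO, 130, 130 and 147 in Ctrl-Thap, 53, 58 and 49.3 in Sh2-DMSO and 133, 127 and 139 in Sh2-Thap. The populations stood apart in DMSO and overlapped with thapsigargin. Knockdown effects were 0.98 (SE 0.06, adjusted p = 1.52e-14) in DMSO and -0.03 (SE 0.05, adjusted p = 0.674) with thapsigargin, and the interaction -1.01 (SE 0.08, adjusted p = 1.68e-11). Plk2 averaged 180, 852, 262 and 971 CPM in Ctrl-DMSO, Ctrl-Thap, Sh2-DMSO and Sh2-Thap. Thapsigargin raised it 4.73-fold in Ctrl and 3.71-fold in Sh2, with an interaction of -0.35 (SE 0.06, adjusted p = 3.68e-05).

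Psrc1, which encodes a microtubule-associated protein of the mitotic spindle, rose with the knockdown and was not called with thapsigargin in control cells. It was at 37.7, 39 and 37.4 CPM in Ctrl-DMSO, 41.4, 38.2 and 43.4 in Ctrl-Thap, 65.7, 63.5 and 58.1 in Sh2-DMSO and 84.7, 95.2 and 88 in Sh2-Thap. Only the control groups overlapped. Between the populations the log2 difference, Sh2 minus Ctrl, was 0.71 (SE 0.06) in DMSO and 1.12 (SE 0.06) with thapsigargin, both called, and the interaction 0.41 (SE 0.08, adjusted p = 0.000139). The thapsigargin effect in Ctrl, 0.11 (SE 0.06, adjusted p = 0.105), passed without Ctrl-Thap replicate 2 (0.15), with RLE scaling (0.14) and with the stricter filter (0.15), where adjusted p over the alternatives ran from 0.0268 to 0.393.

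Sesn1, which encodes sestrin 1, an inhibitor of mTORC1, was the sole arrest gene below the control in DMSO. It was counted at 31.2, 30.6 and 29.4 CPM in Ctrl-DMSO, 16.8, 16.7 and 16 in Ctrl-Thap, 19.5, 16.7 and 19.5 in Sh2-DMSO and 12.4, 13.2 and 12.8 in Sh2-Thap. Untreated control cells stood above the rest, and Ctrl-Thap overlapped Sh2-DMSO. The knockdown lowered it by 0.71 in DMSO and by 0.37 with thapsigargin, and thapsigargin lowered it by 0.88 in Ctrl and by 0.54 in Sh2. The interaction was 0.34 (SE 0.10, adjusted p = 0.00824), a smaller fall in the cells that started lower.

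Btg2 and Zmat3 complete the arrest genes. Btg2, an antiproliferative factor that recruits the CCR4-NOT deadenylase, averaged 47.2, 71.4, 58.5 and 77 CPM in Ctrl-DMSO, Ctrl-Thap, Sh2-DMSO and Sh2-Thap. Thapsigargin raised it by 0.60 in Ctrl (SE 0.05) and by 0.40 in Sh2 (SE 0.05). The knockdown raised it by 0.31 in DMSO (SE 0.05) and the effect with thapsigargin was 0.11 (SE 0.05, adjusted p = 0.0632). That effect passed with upper quartile scaling (0.14), with total count scaling (0.24), within the compared groups alone (0.11) and without Sh2-Thap replicate 2 (0.15), and adjusted p over the alternatives ran from 0.000151 to 0.25. Its interaction of -0.20 (SE 0.07, adjusted p = 0.028) lost the call with total count scaling (-0.04), without the filter (-0.18) and without Ctrl-DMSO replicate 2 (-0.19), Ctrl-Thap replicate 2 (-0.19) or Sh2-Thap replicate 2 (-0.16), where adjusted p ran from 0.0145 to 0.686. Zmat3, an RNA-binding zinc finger gene, rose with the knockdown by 0.40 (SE 0.04) in DMSO and 0.25 (SE 0.04) with thapsigargin. Thapsigargin raised Zmat3 by 0.21 (SE 0.04) in Ctrl, and its effect in Sh2 was 0.07 (SE 0.04, adjusted p = 0.17). Its interaction of -0.14 (SE 0.06, adjusted p = 0.0643) passed without Ctrl-Thap replicate 1 (-0.18), with DESeq2 (-0.15) and with the stricter filter (-0.16), and adjusted p over the alternatives ran from 0.0263 to 0.889.

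Among the apoptosis genes, Pmaip1, which encodes the BH3-only protein Noxa, rose in all 4 pairwise comparisons. It stood at 12.1, 10.1 and 12.2 CPM in Ctrl-DMSO, 37.9, 39.4 and 39.8 in Ctrl-Thap, 28.5, 26.3 and 26.4 in Sh2-DMSO and 67.5, 80.9 and 69.8 in Sh2-Thap. No group overlapped another, and each factor raised it. The knockdown raised it 2.36-fold in DMSO (log2 1.24, SE 0.08, adjusted p = 7.99e-15) and 1.86-fold with thapsigargin (0.90, SE 0.06, adjusted p = 1.23e-13). Thapsigargin raised it 3.41-fold in Ctrl and 2.69-fold in Sh2. The interaction of -0.34 (SE 0.10, adjusted p = 0.00758) was not called with total count scaling (-0.19), and adjusted p over the alternatives ran from 0.000852 to 0.137.

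Bbc3, which encodes the other p53-induced BH3-only protein, Puma, was lower with the knockdown where Pmaip1 was higher. Bbc3 (ENSMUSG00000002083, chromosome 7, 16308393 to 16318205, plus strand) stood at 11, 11.8 and 11.3 CPM in Ctrl-DMSO, 28.5, 30.3 and 34.3 in Ctrl-Thap, 9.47, 8.9 and 8.71 in Sh2-DMSO and 25.2, 24 and 26.4 in Sh2-Thap. The groups did not overlap, and the thapsigargin groups lay far above the DMSO groups. The knockdown lowered it by 0.34 in DMSO (SE 0.09, adjusted p = 0.00139) and by 0.30 with thapsigargin (SE 0.07, adjusted p = 0.000439). Thapsigargin raised it by 1.45 (SE 0.08) in Ctrl and 1.48 (SE 0.08) in Sh2, with an interaction of 0.04 (SE 0.11, adjusted p = 0.838).

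Bax, the pore-forming effector downstream of both BH3-only proteins, rose with the knockdown and slipped with thapsigargin. It was at 28.4, 27.6 and 25.8 CPM in Ctrl-DMSO, 23.9, 23.9 and 25.1 in Ctrl-Thap, 48, 51.5 and 41.5 in Sh2-DMSO and 36.1, 40.2 and 41.7 in Sh2-Thap. Every knockdown library lay above every control library, and the knockdown groups overlapped each other. The knockdown effect was 0.78 (SE 0.07, adjusted p = 4.21e-11) in DMSO and 0.70 (SE 0.07, adjusted p = 4.3e-10) with thapsigargin. The thapsigargin effects were small: -0.26 (SE 0.07, adjusted p = 0.00124) in Sh2, not called with total count scaling (-0.14), and -0.17 (SE 0.07, adjusted p = 0.0351) in Ctrl. The latter was not called without Ctrl-DMSO replicate 1 (-0.14) or 2 (-0.15), without Ctrl-Thap replicate 1 or 2 (-0.16 each), with RLE scaling (-0.14), with the stricter filter (-0.13) or with DESeq2 (-0.14). Over the alternatives adjusted p ran from 0.00807 to 0.136 in Ctrl and from 1.78e-05 to 0.07 in Sh2. The gene Gm45808 on the same strand covers 12.2% of the exon length of Bax.

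The death receptor genes differed among themselves. Fas was at 10.1, 10.2 and 11.7 CPM in Ctrl-DMSO, 10.2, 9.54 and 10.4 in Ctrl-Thap, 8.83, 8.66 and 10.6 in Sh2-DMSO and 14.2, 14 and 15.5 in Sh2-Thap. Only the last group stood apart from the rest, which overlapped. Thapsigargin raised Fas by 0.64 (SE 0.09, adjusted p = 2.14e-07) in Sh2, whereas its effect in Ctrl was -0.09 (SE 0.09, adjusted p = 0.4), and the interaction was 0.72 (SE 0.13, adjusted p = 3.28e-05). The knockdown effect in DMSO, -0.18 (SE 0.09, adjusted p = 0.106), passed without Sh2-DMSO replicate 3 (-0.28), with adjusted p from 0.0197 to 0.406 over the alternatives. Tnfrsf10b, a receptor for the ligand TRAIL, averaged 47.2, 49.1, 85.1 and 76.6 CPM in Ctrl-DMSO, Ctrl-Thap, Sh2-DMSO and Sh2-Thap, and rose with the knockdown by 0.85 (SE 0.05) in DMSO and 0.64 (SE 0.05) with thapsigargin. Its thapsigargin effect in Sh2 of -0.15 (SE 0.05, adjusted p = 0.00628) was not called with total count scaling (-0.03; adjusted p 0.00409 to 0.553 over the alternatives). Its interaction of -0.21 (SE 0.07, adjusted p = 0.0182) was not called with total count scaling (-0.05), without the filter (-0.19) or without Ctrl-DMSO replicate 1 (-0.18) or Ctrl-Thap replicate 2 (-0.18), with adjusted p from 0.00798 to 0.579 over the alternatives.

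Eda2r, the receptor of ectodysplasin A2 and a gene linked to muscle wasting, rose with both factors, and the populations differed more in DMSO. It was at 42.9, 39.5 and 46.7 CPM in Ctrl-DMSO, 101, 108 and 107 in Ctrl-Thap, 76.2, 67.7 and 76 in Sh2-DMSO and 120, 118 and 115 in Sh2-Thap. The groups did not overlap. The change with the knockdown was 0.77 (SE 0.06, adjusted p = 3.12e-13) in DMSO and 0.15 (SE 0.05, adjusted p = 0.0128) with thapsigargin, and the interaction -0.61 (SE 0.08, adjusted p = 9.6e-08). Without Ctrl-Thap replicate 1 the effect with thapsigargin was 0.13 and not called, with adjusted p from 3.94e-05 to 0.0805 over the alternatives.

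Perp, a gene of a desmosomal membrane protein, was nearly silent in control cells. It had 5, 5 and 0 reads in Ctrl-DMSO (0.146, 0.143 and 0 CPM) and 4, 3 and 1 reads in Ctrl-Thap (0.129, 0.065 and 0.0281 CPM), and the library at 0 allows up to 0.0867 CPM, counted as 3 reads. In knockdown cells it had 27, 33 and 31 reads in DMSO (0.873, 0.973 and 0.897 CPM) and 22, 35 and 23 with thapsigargin (0.646, 1.14 and 0.676 CPM). All knockdown libraries lay above all control libraries, at a low level. The fitted log2 changes were 3.20 (SE 0.50, adjusted p = 2.17e-06) in DMSO and 3.45 (SE 0.53, adjusted p = 1.12e-06) with thapsigargin, and they rest on 10 and 8 reads in the 2 control groups. The sum of 5 markers of epithelial cells, in which Perp is known, was also higher in the knockdown. It was higher with thapsigargin too, for which Perp was not called (-0.42, adjusted p = 0.636 in Ctrl and -0.17, adjusted p = 0.683 in Sh2). The 5 levels summed to 0.318 to 0.429 CPM in Ctrl-DMSO, 1.09 to 1.13 in Sh2-DMSO, 2.99 to 3.57 in Ctrl-Thap and 7.2 to 8.49 in Sh2-Thap, with Epcam and Krt18 at 0 in Ctrl-DMSO. Not every marker followed the sum. Cdh1 averaged 0.106 CPM in Ctrl-DMSO against 0.0583 in Sh2-DMSO, and 0.282 in Ctrl-Thap against 0.243 in Sh2-Thap. The part of these markers in the result was not tested.

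Ei24, whose product sits in the ER membrane and takes part in autophagy, was among the members that thapsigargin lowered. It was at 58.3, 51.6 and 55.5 CPM in Ctrl-DMSO, 38.9, 41.9 and 36.8 in Ctrl-Thap, 64.3, 68.6 and 65.2 in Sh2-DMSO and 47.4, 48.1 and 46.5 in Sh2-Thap. The groups stood apart, with the knockdown above the control in each treatment. With the knockdown the log2 change was 0.26 (SE 0.06) in DMSO and 0.27 (SE 0.06) with thapsigargin, and thapsigargin lowered it by 0.49 in Ctrl and by 0.48 in Sh2, all 4 called. A gene on the other strand covers 6.7% of its exon length.

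Further apoptosis genes were given by their means. Apaf1, the scaffold of the apoptosome, was the only member that thapsigargin moved in opposite directions, from 44.4 to 38.5 CPM in Ctrl (log2 -0.21, SE 0.06, adjusted p = 0.00225) and from 54.1 to 60.9 CPM in Sh2 (0.17, SE 0.06, adjusted p = 0.00942). The interaction was 0.37 (SE 0.08, adjusted p = 0.000442), and the rise in Sh2 was not called without Sh2-DMSO replicate 2 (0.10) or Sh2-Thap replicate 1 (0.14), with adjusted p from 8.34e-05 to 0.13 over the alternatives. Trp53inp1, which encodes a nuclear stress protein that acts with p53, averaged 34.3, 55.2, 49.2 and 84.5 CPM in Ctrl-DMSO, Ctrl-Thap, Sh2-DMSO and Sh2-Thap, and rose in all 4 pairwise comparisons by 0.52 to 0.78. Aen, a nuclease gene, averaged 70.5, 139, 104 and 157 CPM in the same order, with a knockdown effect of 0.56 (SE 0.05) in DMSO and 0.17 (SE 0.05) with thapsigargin and an interaction of -0.39 (SE 0.07, adjusted p = 1.41e-05). Phlda3 averaged 262, 261, 320 and 382 CPM, so that thapsigargin raised it in Sh2 (0.25, SE 0.05), with an interaction of 0.26 (SE 0.07, adjusted p = 0.00212).

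**Figure D4:**
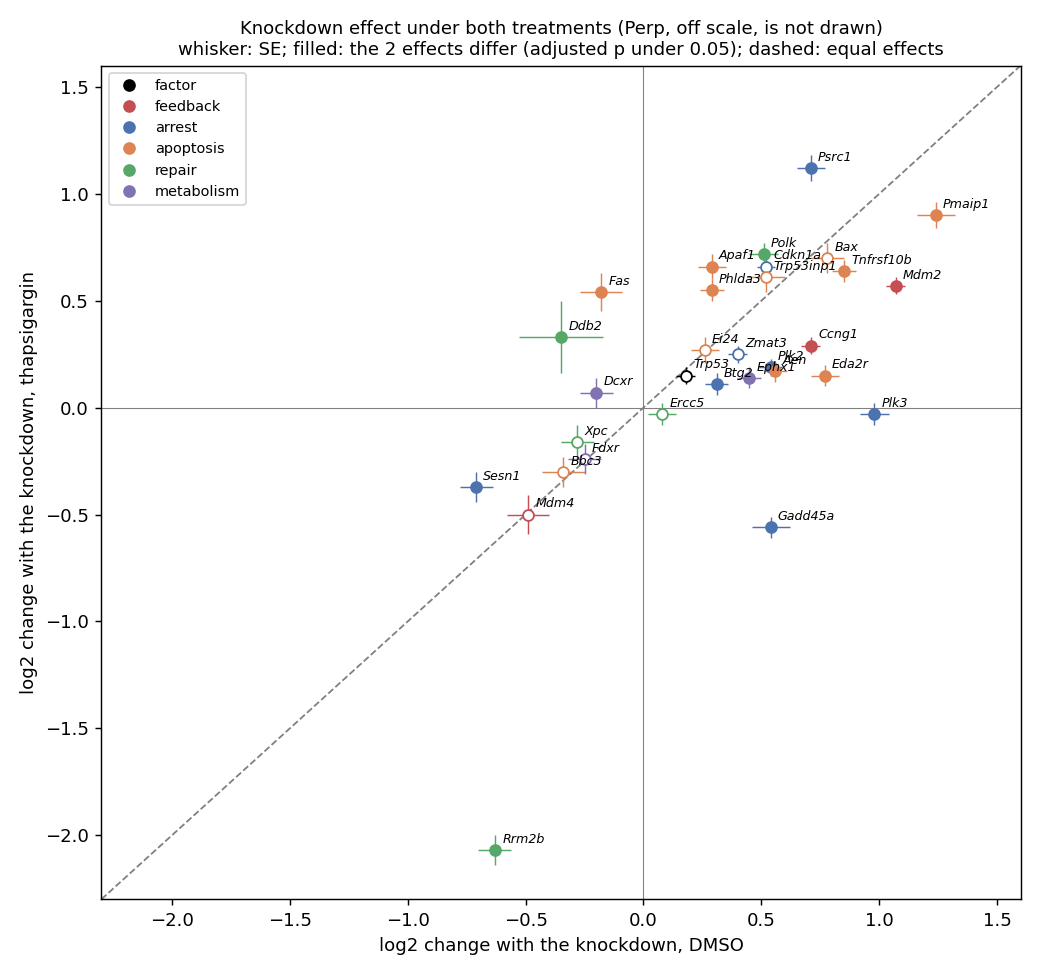
Log2 change with the knockdown in DMSO (x axis) and with thapsigargin (y axis) for the genes named at the points, with SE as whiskers, filled where the interaction was called, and the dashed line marking equal effects. Most points lie in the upper right, Rrm2b stands alone at the bottom (-0.63 and -2.07), and Gadd45a lies in the lower right. Perp is left out for scale.

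Among the repair genes, Rrm2b changed most, and with thapsigargin it was the member lowered furthest by the knockdown. Rrm2b (ENSMUSG00000022292, chromosome 15, 37923952 to 37961318, minus strand) encodes p53R2, the subunit of ribonucleotide reductase that supplies nucleotides outside S phase. It was counted at 28.8, 28.2 and 34.4 CPM in Ctrl-DMSO and at 113, 105 and 122 in Ctrl-Thap, against 20.3, 19.6 and 19.2 in Sh2-DMSO and 26.9, 27.8 and 26.3 in Sh2-Thap. Stressed control cells stood far above the other groups, and stressed knockdown cells stayed just below untreated control cells. Knockdown effects were -0.63 (SE 0.07, adjusted p = 7.09e-09) in DMSO and -2.07 (SE 0.07, adjusted p = 1.82e-22) with thapsigargin, where the level was 0.24 times that of the control. Thapsigargin raised it 3.71-fold in Ctrl and 1.37-fold in Sh2, with an interaction of -1.44 (SE 0.10, adjusted p = 2.03e-13), the lowest of the 32. A gene on the other strand covers 8.0% of its exon length.

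Polk, which encodes the translesion polymerase kappa, rose with both factors instead. It was at 34.1, 32.6 and 37.4 CPM in Ctrl-DMSO, 61.5, 60.5 and 65.6 in Ctrl-Thap, 49.3, 49.7 and 49 in Sh2-DMSO and 104, 108 and 96.3 in Sh2-Thap. No groups overlapped. Between the populations the log2 difference, Sh2 minus Ctrl, was 0.51 (SE 0.06) in DMSO and 0.72 (SE 0.05) with thapsigargin, and the thapsigargin effect 0.85 (SE 0.06) in Ctrl and 1.06 (SE 0.05) in Sh2, all 4 called. The interaction of 0.21 (SE 0.08, adjusted p = 0.0332) was lost with DESeq2 (0.20) and without Ctrl-DMSO replicate 3 (0.15), Ctrl-Thap replicate 1 (0.20) or 2 (0.19), Sh2-DMSO replicate 1 or 3 (0.21 each) or Sh2-Thap replicate 1 (0.20) or 2 (0.17), with adjusted p from 0.00026 to 0.147 over the alternatives.

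In the pairwise comparisons the log2 changes of the nucleotide excision repair genes reached at most 0.48 in size, that of Ddb2 with thapsigargin in Sh2. Ddb2, which helps to recognise ultraviolet damage, was at 1.89, 2.15 and 2.05 CPM in Ctrl-DMSO, 1.87, 1.69 and 1.74 in Ctrl-Thap, 1.65, 1.68 and 1.45 in Sh2-DMSO and 2.2, 2.37 and 2.09 in Sh2-Thap. Its libraries held few reads, 158 to 219 in a group of 3, and Acp2 on the other strand covers 23.8% of its exon length. Thapsigargin raised it in Sh2 by 0.48 (SE 0.18, adjusted p = 0.0182), a call lost without Sh2-DMSO replicate 3 (0.40), without Sh2-Thap replicate 2 (0.43) and without the filter (0.47), with adjusted p from 0.00348 to 0.086 over the alternatives. The knockdown effects, -0.35 (SE 0.18) in DMSO and 0.33 (SE 0.17) with thapsigargin, were not called, the latter except with total count scaling (0.46; adjusted p 0.0195 to 0.233 over the alternatives). The interaction of 0.68 (SE 0.25, adjusted p = 0.0309) was lost without the filter (0.70), with DESeq2 (0.68) and without Ctrl-DMSO replicate 2 (0.62) or 3 (0.68), Ctrl-Thap replicate 2 (0.65) or 3 (0.67), Sh2-DMSO replicate 3 (0.62) or Sh2-Thap replicate 1 (0.69) or 2 (0.64), with adjusted p from 0.006 to 0.0847 over the alternatives.

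Xpc, the damage sensor of the same pathway, was at 22.2, 22.4 and 22.6 CPM in Ctrl-DMSO, 15.7, 18.6 and 19.5 in Ctrl-Thap, 18.5, 18.7 and 18.3 in Sh2-DMSO and 16.1, 14.8 and 17.2 in Sh2-Thap. Untreated control cells stood above the other groups. It fell by 0.28 with the knockdown in DMSO (SE 0.07, adjusted p = 0.00223) and by 0.32 with thapsigargin in Ctrl (SE 0.07, adjusted p = 0.000265). The effect of thapsigargin in Sh2, -0.20 (SE 0.08, adjusted p = 0.0198), was not called without Sh2-Thap replicate 2 (-0.15), with total count scaling (-0.08) or with DESeq2 (-0.19), with adjusted p from 0.00945 to 0.347 over the alternatives. The knockdown effect with thapsigargin was -0.16 (SE 0.08, adjusted p = 0.0694) and passed without Ctrl-Thap replicate 1 (-0.25) or Sh2-Thap replicate 3 (-0.22), with adjusted p from 0.00899 to 0.764. The interaction of 0.12 (SE 0.11, adjusted p = 0.438) passed with total count scaling only (0.27; adjusted p from 0.042 to 0.851). Ercc5, the endonuclease XPG, averaged 36.2, 47.3, 38.2 and 46.2 CPM in Ctrl-DMSO, Ctrl-Thap, Sh2-DMSO and Sh2-Thap, rose with thapsigargin by 0.39 (SE 0.06) in Ctrl and 0.27 (SE 0.06) in Sh2, and was not called with the knockdown.

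**Figure D5:**
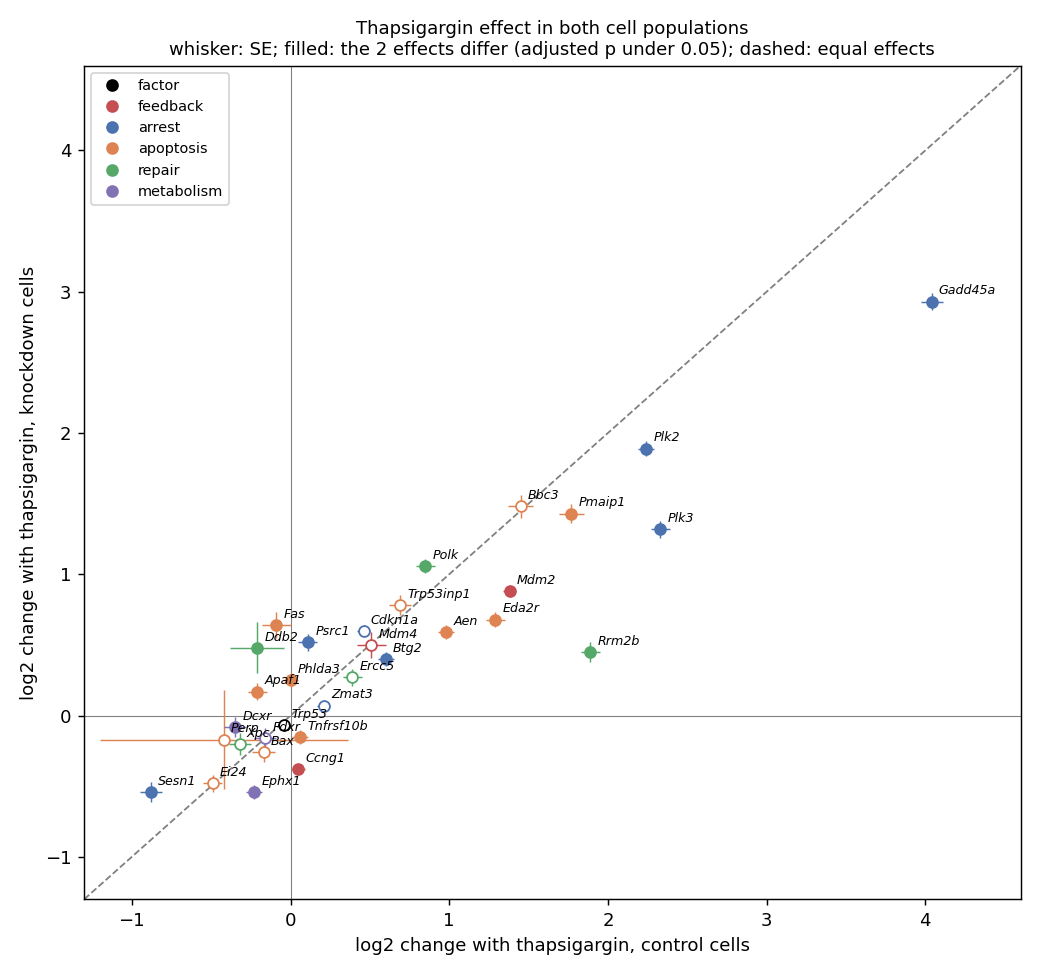
Log2 change with thapsigargin in control cells (x axis) and in knockdown cells (y axis) for the 32 genes, with SE as whiskers, filled where the interaction was called, and the dashed line marking equal effects. Gadd45a (4.04 and 2.93), Plk3 (2.33 and 1.32) and Rrm2b (1.89 and 0.45) lie well below the line, Bbc3 (1.45 and 1.48) lies on it, and Fas (-0.09 and 0.64) lies above it.

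All 3 genes of metabolism fell with thapsigargin in control cells. Ephx1, which encodes microsomal epoxide hydrolase, was at 138, 147 and 139 CPM in Ctrl-DMSO, 114, 117 and 130 in Ctrl-Thap, 199, 195 and 185 in Sh2-DMSO and 129, 131 and 138 in Sh2-Thap. Untreated knockdown cells stood above the rest, and Sh2-Thap overlapped both control groups at its edges. The knockdown effect was 0.45 (SE 0.05, adjusted p = 1.85e-09) in DMSO and 0.14 (SE 0.05, adjusted p = 0.013) with thapsigargin, the latter lost without Ctrl-Thap replicate 1 (0.10) or 2 (0.12) or Sh2-Thap replicate 3 (0.11), with adjusted p from 1.4e-05 to 0.114 over the alternatives. Thapsigargin lowered it by 0.23 in Ctrl and by 0.54 in Sh2, and the interaction of -0.31 (SE 0.07, adjusted p = 0.000563) was lost with total count scaling (-0.15; adjusted p from 0.000135 to 0.0785).

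Fdxr, the mitochondrial ferredoxin reductase, was at 27.2, 28.3 and 24 CPM in Ctrl-DMSO, 23.9, 23.3 and 23.9 in Ctrl-Thap, 21.8, 24.4 and 20.7 in Sh2-DMSO and 20.2, 19.3 and 20.5 in Sh2-Thap. Sh2-Thap stood below the rest, which overlapped in part. The change with the knockdown was -0.25 (SE 0.07, adjusted p = 0.00358) in DMSO and -0.24 (SE 0.07, adjusted p = 0.00404) with thapsigargin, the latter lost with total count scaling (-0.11; adjusted p from 0.00196 to 0.18). Its fall by 0.16 with thapsigargin in Ctrl (SE 0.07, adjusted p = 0.0368) was lost without Ctrl-DMSO replicate 1 (-0.15) or 2 (-0.10), without Ctrl-Thap replicate 1 (-0.17), 2 (-0.15) or 3 (-0.17), with RLE scaling (-0.13), with the stricter filter (-0.12) and with DESeq2 (-0.13), with adjusted p from 0.00548 to 0.257. The effect in Sh2, -0.16 (SE 0.07, adjusted p = 0.0546), passed without Ctrl-DMSO replicate 2 or 3, Ctrl-Thap replicate 3 (-0.16 each) or Sh2-DMSO replicate 3 (-0.22), with adjusted p from 0.0156 to 0.664.

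Dcxr, a reductase of dicarbonyls and xylulose, was at 23.2, 22.6 and 22.7 CPM in Ctrl-DMSO, 17.3, 18.9 and 17.4 in Ctrl-Thap, 19.7, 19.7 and 20.5 in Sh2-DMSO and 19, 16.8 and 20.7 in Sh2-Thap. Untreated control cells stood above the rest. Thapsigargin lowered it by 0.35 in Ctrl (SE 0.07, adjusted p = 5.38e-05). The knockdown effect of -0.20 in DMSO (SE 0.07, adjusted p = 0.0226) was lost without Ctrl-DMSO replicate 1 (-0.18) or 2 (-0.19) and without Sh2-DMSO replicate 1 or 2 (-0.19 each), with adjusted p from 0.0133 to 0.0683 over the alternatives. With thapsigargin the knockdown effect was 0.07 (SE 0.07, adjusted p = 0.4) and passed with total count scaling only (0.21; adjusted p from 0.0181 to 0.994). The interaction of 0.27 (SE 0.10, adjusted p = 0.0385) was lost with DESeq2 (0.26), without Ctrl-DMSO replicate 1 (0.26), 2 (0.26) or 3 (0.27), Ctrl-Thap replicate 1 or 3 (0.25 each), Sh2-DMSO replicate 1 or 2 (0.26 each) or Sh2-Thap replicate 1 (0.26) or 3 (0.20), with adjusted p from 0.00143 to 0.164.

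A further list of 22 genes known as p53 targets, of which 21 were tested, was called in both directions. All genes tested were called higher and lower at 25% and 26.5% with the knockdown in DMSO, 28.5% and 28.4% with thapsigargin present, 37.7% and 37% for thapsigargin in Ctrl, 35.4% and 34.4% in Sh2, and 17.6% and 17.7% for the interaction. The knockdown raised 10 and lowered 6 in DMSO (median 0.18) and raised 11 and lowered 8 with thapsigargin (median 0.25). Thapsigargin raised 9 and lowered 7 in Ctrl (median 0.13) and raised 8 and lowered 9 in Sh2 (median -0.14), and the interaction was above zero for 4 and below for 5 (median 0.12). For thapsigargin these are 42.9% and 33.3% of the 21 in Ctrl and 38.1% and 42.9% in Sh2, and for the interaction 19.0% and 23.8%, near the shares of all genes. With the knockdown in DMSO the largest changes were those of Igfbp3, which binds insulin-like growth factors (2.19, at 0.549 CPM in Ctrl-DMSO and 2.52 in Sh2-DMSO), and of Dram1, an autophagy gene (-1.13). With thapsigargin present the knockdown lowered Ddit4 most, an inhibitor of mTORC1 that ATF4 also raises (-1.80). Thapsigargin raised Sesn2, the sestrin that ATF4 drives, most in Ctrl (2.44) and lowered the ferrireductase gene Steap3 most in both populations (-2.10 in Ctrl and -1.18 in Sh2). Trp53cor1, the long non-coding RNA lincRNA-p21, rose most in Sh2 (2.47) and had the highest interaction (1.16), and Igfbp3 had the lowest (-2.68).

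Of 24 genes that control p53, 22 were tested. Thapsigargin raised 14 and lowered 5 in Ctrl (63.6% and 22.7%, against 37.7% and 37% of all genes, median 0.23) and raised 10 and lowered 5 in Sh2 (45.5% and 22.7%, against 35.4% and 34.4%, median 0.09). The kinase gene Atm fell most in both, from 23 to 10.3 CPM in Ctrl (-1.17) and from 24.1 to 12.8 in Sh2 (-0.92), and the deacetylase gene Sirt1 rose by 1.04 in Sh2. Trp63, a paralog of Trp53, rose by 2.44 in Ctrl but stayed under 1 CPM in all groups, at means of 0.096 to 0.548 CPM. The knockdown raised 7 and lowered 2 in DMSO (31.8% and 9.1%, against 25% and 26.5%, median 0.06) and raised 6 and lowered 5 with thapsigargin (27.3% and 22.7%, against 28.5% and 28.4%, median 0.02). Ppp1r13l, which encodes the p53 inhibitor iASPP, rose most with it (0.57 in DMSO and 0.70 with thapsigargin). The E3 ligase gene Cop1 fell most with it in DMSO (-0.32). With thapsigargin present the largest called falls were those of Trp63 (-1.09, adjusted p = 0.0366) and Cop1 (-0.87). Cop1 also had the lowest called interaction (-0.56) and the DNA repair kinase gene Prkdc the highest (0.48), where 2 were above zero and 7 below (9.1% and 31.8%, against 17.6% and 17.7%, median -0.12). Cdkn2a, whose product p19Arf restrains Mdm2, had 0 reads in all 12 libraries, which allows up to 0.0072 CPM over all of them, taken as 3 reads.

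Genes that the DREAM complex represses when p21 is high, here 15 genes of the cell cycle, were set beside Cdkn1a. Of all genes tested, 25% were called higher and 26.5% lower with the knockdown in DMSO, 28.5% and 28.4% with thapsigargin present, 37.7% and 37% for thapsigargin in Ctrl, 35.4% and 34.4% in Sh2, and 17.6% and 17.7% for the interaction. The knockdown, in which Cdkn1a was higher, raised 10 of them and lowered 1 in DMSO (median 0.26) and raised 14 and lowered none with thapsigargin (median 0.43). Ccnb1, which encodes cyclin B1, rose most in DMSO (0.50), while E2f1 fell in DMSO (-0.24). Thapsigargin, with which Cdkn1a was also higher, lowered 12 and raised none in Ctrl (median -0.59) and lowered 11 and raised 1 in Sh2 (median -0.55). The replication gene Mcm5 fell most in Ctrl (-1.41) and Cdk1 in Sh2 (-1.09). The interaction was above zero for 6, led by E2f1 (0.68), and below for Aurka (-0.23), with a median of 0.13. Chek1 is counted here and among the genes that control p53.

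Transcription factors and a pseudokinase of the ER stress response were measured beside the members. Of 5 such genes other than Cebpg, thapsigargin raised all 5 in each population (medians 4.59 in Ctrl and 3.42 in Sh2), with Atf3 at 5.59 in Ctrl and Trib3 at 4.75 in Sh2 the largest. With thapsigargin present the knockdown lowered all 5 (median -0.72), among them Trib3 by 1.23, and the interaction was below zero for 4 (median -0.68), led by Atf3 (-1.82). In DMSO the knockdown raised 2, led by Atf3 (1.18), and lowered 2, led by Trib3 (-1.03). Of all genes tested, 25% were called higher and 26.5% lower with the knockdown in DMSO, and 28.5% and 28.4% with thapsigargin present. For thapsigargin the shares were 37.7% and 37% in Ctrl and 35.4% and 34.4% in Sh2, and for the interaction 17.6% and 17.7%. Markers of other cells also differed between the groups. The 4 endothelial markers, mostly Tek, summed to 3.85 to 4.85 CPM in Ctrl-DMSO and 23.2 to 27.3 in Ctrl-Thap, and to 5.51 to 6.56 in Sh2-DMSO and 13.2 to 15.5 in Sh2-Thap. The sum was higher with thapsigargin in both populations. The sum of the adipocyte markers, nearly all Lpl, was lower in the knockdown, while Fabp4 was not called with it under either treatment. The 4 adipocyte markers summed to 129 to 134 CPM in Ctrl-DMSO, 126 to 127 in Ctrl-Thap, 45.8 to 52.6 in Sh2-DMSO and 26.9 to 30.2 in Sh2-Thap. Of the 6 leukocyte markers 5 stayed under 1 CPM in every library, and the sums were 3.53 to 4.05, 2.19 to 2.8, 4.62 to 6.93 and 3.44 to 4.52 CPM in the same order. Their part in the changes of the p53 targets was not tested. In bulk RNA, fewer cells of a kind and less RNA per cell cannot be told apart.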

How the data were processed

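The authors deposited raw counts of reads per gene for 12 libraries. Per the submitters' processing notes, the tools included Trim Galore, STAR 2.5.3a, bedtools 2.31.0 and DESeq2, and the builds mm10 and hg38 are both named. The counter, annotation and strand setting are not given in the sources used here. Of 53801 gene identifiers 53706 matched GENCODE (GRCm38), and 5 entries naming no gene (13.32% to 14.61% of reads) were left out.

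Counts were tested with edgeR 4.0.16 (TMM scaling, filterByExpr, robust quasi-likelihood fit over 4 groups, 8 residual degrees of freedom, common biological coefficient of variation 4.67%), with Benjamini-Hochberg adjustment over 15828 genes and calls under 0.05. Levels are CPM divided by the TMM factor, so that they match the fold changes. SEs were derived from the size of a log2 change and the root of its F statistic, and are approximate. Motifs were searched by exact letters or, for p53, by consensus. The fit was tested on simulated data for the knockdown in DMSO alone. It recovered 98% of 100 genes changed by 1.0 on the log2 scale and 84% of 100 changed by 0.5. All of these had a mean of at least 1 CPM, so the shares do not cover genes as low as Perp. Far fewer genes were changed than were called in the real data, and each gene's spread was taken from the trend over all genes. The interaction and the motif search were not tested in this way.

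The members and the lists (other p53 targets, p53 regulators, p21 and DREAM repressed genes, stress factors, cell markers) were chosen with earlier results of these data known. Values in every library are given for Trp53, Cdkn1a, Mdm2, Pmaip1, Bax, Bbc3 and, per role and comparison, the called member with the largest change in each direction. Of other lists the called gene with the largest change in each direction was named in some comparisons and left out in others. Results of some genes of these lists are not reported here. Alternatives were RLE, upper quartile and total count scaling, no filter, a stricter filter (1 CPM in 3 libraries), DESeq2 1.42.0, limma-voom (limma 3.58.1), a replicate block, the compared groups alone, a threshold of 0.01 and leaving out each library. Replicates differed by more than counting noise. Scripts ran in R 4.3.3 and in Python 3.11.15 with numpy 2.4.6, pandas 2.3.3 and matplotlib 3.10.9.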

Additional observations from a re-analysis of the deposited data

Results flagged for a closer look

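The thapsigargin effect differed between the cell populations for 20 of the 32 genes, by edgeR's test of the interaction (effect in Sh2 minus effect in Ctrl, log2, adjusted p under 0.05), against 17.6% of all genes above zero and 17.7% below. Below zero were Rrm2b (-1.44), Gadd45a (-1.10), Plk3 (-1.01), Eda2r (-0.61), Mdm2 (-0.50), Ccng1 (-0.42), Aen (-0.39), Plk2 (-0.35), Pmaip1 (-0.34), Ephx1 (-0.31), Tnfrsf10b (-0.21) and Btg2 (-0.20). Above zero were Fas (0.72), Ddb2 (0.68), Psrc1 (0.41), Apaf1 (0.37), Sesn1 (0.34), Dcxr (0.27), Phlda3 (0.26) and Polk (0.21). The calls of Btg2, Tnfrsf10b, Ddb2, Polk and Dcxr were lost on leaving out single libraries, and those of Btg2, Tnfrsf10b, Pmaip1 and Ephx1 with total count scaling.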

How the results depend on the processing

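None of the 3322 log2 changes recomputed for the members turned its direction while called: 3225 kept their side of the threshold, 72 lost the call and 25 gained it. The single setting with the most changes was total count scaling (14), and leaving out a library changed 3 to 8. Members lower with thapsigargin in Sh2 numbered 4 under total count scaling (7 as reported), where Bax, Tnfrsf10b and Xpc were not called. Members above zero in the interaction numbered 5 with DESeq2, 5 at a threshold of 0.01 and 5 to 8 on leaving out a library (8 as reported), and the cause was not tested. Members below zero numbered 8 with total count scaling (12 as reported). With the replicate number as a block, Cdkn1a gained the interaction call (0.14, adjusted p 0.0493, against 0.000143 to 0.238 over all alternatives) and no other call of a member changed, with 22 and 7 members higher and lower with the knockdown in DMSO. Residuals of same-numbered libraries correlated by -0.03 to 0.077 over 18 pairs, 0 of them above 0.1, so the numbers were not taken as pairs. Low counts limit Perp and Ddb2.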
